A study of Homo sapiens with 12 samples.

Results

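The genes described here are 10 regulators of the G1 phase of the cell cycle: the D-type cyclins CCND1, CCND2 and CCND3, the E-type cyclins CCNE1 and CCNE2, the kinase CDK6, and the CDK inhibitors CDKN1A (p21), CDKN1B (p27), CDKN2C (p18) and CDKN2D (p19). They were chosen by gene name, with earlier results of these data known, and all 10 were found among the 58191 rows of the deposited expression table. In 7 of them the row name could be used for all 12 libraries; in CCNE2, CDKN1A and CDKN2D it could be used for the K562 libraries alone, because the rows of the 2 sets of columns no longer matched in that stretch of the table.

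Cells commit to DNA replication late in G1. D-type cyclins, which respond to growth signals, bind CDK4 or CDK6, and E-type cyclins bind CDK2; these kinases phosphorylate the retinoblastoma protein and so release the E2F transcription factors, whose targets include the E-type cyclins and the DNA replication machinery. INK4 inhibitors such as p18 and p19 bind CDK4 and CDK6 and keep D-type cyclins off, whereas the CIP/KIP inhibitors p21 and p27 bind cyclin-CDK complexes and inhibit CDK2 in particular. In blood cells CDK6 and cyclins D2 and D3 are the forms most used, and p27, p18 and p21 are linked to quiescence and differentiation.

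RNA sequencing was done on 12 libraries of human leukaemia cell lines, 3 in each of 4 groups: K562 wild-type control, K562 with EVI1 overexpression, and the same 2 groups with the label MOLM14. K562 is a BCR-ABL1 line from chronic myeloid leukaemia with erythroid features, and MOLM14 comes from an acute leukaemia of monocytic type; EVI1, the product of the MECOM gene, is a DNA-binding factor with 2 sets of zinc fingers. No library carries a drug label. The labels do not state how EVI1 was expressed, whether controls carried an empty vector, whether a line is a clone, or whether replicates were separate cultures, so p-values measure only the spread between these samples, which may be technical. Values are FPKM, fragment counts scaled to transcript length and library size, as deposited by the authors.

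The overexpressed gene and the line labels were checked first. MECOM averaged 12.2 ± 2.08 FPKM in K562 control and 23.99 ± 1.94 in K562 EVI1 (SD, n = 3 in every group of this report), and 9.08 ± 0.562 and 17.6 ± 0.617 in the libraries labelled MOLM14. Estimated depth was 38000000 to 78700000 fragments in K562 and 29900000 to 38200000, from 17 to 29 low values per library, under the MOLM14 label. Of the 7 readable markers fixed for MOLM14, 3 were at or near 0 in the libraries with that label: FLT3 was at 0 in the controls and at most 0.00915 FPKM in the EVI1 libraries, HOXA9 at most 0.0245 and MPO at most 0.0628. The other 4 were present, with control means of 80.9 FPKM for LYZ, 44.2 for SPI1, 34.8 for CD33 and 2.33 for CSF3R, against 21.8, 28.8, 24.7 and 0.582 in K562 controls. The erythroid factors GATA1 and KLF1 stood at means of 113 and 34.5 FPKM in the labelled MOLM14 controls and 145 and 59.6 in their EVI1 libraries. Over 4008 genes with usable names, the EVI1 libraries labelled MOLM14 correlated with the K562 controls at r of 0.962 to 0.973 and with their own controls at 0.960 to 0.962. Whether these libraries are MOLM14 cells was not tested further, and they are called by their label throughout.

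In K562 the EVI1 libraries held more mRNA of the 3 D-type cyclins, of CDK6 and of the inhibitors p21 and p19, and less mRNA of both E-type cyclins. Of the 10 genes, 6 rose (CCND1, CCND2, CCND3, CDK6, CDKN1A and CDKN2D), 2 fell (CCNE1 and CCNE2), and CDKN1B and CDKN2C did not pass the test. Calls rest on a limma moderated test on log2(FPKM + 1), fitted to all 13800 genes above the expression filter with Benjamini-Hochberg adjustment across them, with a gene called at an adjusted p under 0.05. Of all genes tested, 51.9% were called, 28.2% up and 23.7% down, so a call in this comparison is common. Of the called genes 54.4% were up, against 65.6% with libraries rescaled to the same FPKM sum and 45.0% with quantile normalization. The median log2 fold change was 0.39 over the 10 genes and 0.005 over all genes tested. As the genes were chosen with earlier results of these data known, this contrast only describes them. In bulk RNA, a change of mRNA per cell and a change in the share of cells in a phase of the cycle cannot be told apart. Marker sums moved in the same libraries: from 9761 to 10419 FPKM in controls to 12523 to 15693 with EVI1 for 14 erythroid and megakaryocytic markers, all of them at 1 FPKM or more on average. For 6 fibroblast or epithelial markers, led by KRT8 and KRT18, the sums were 865 to 1009 and 1405 to 1526. Among these, mean EPCAM fell from 53.8 to 26.2 FPKM, whereas the others rose, COL1A1 from 1.74 to 20.9. For 8 T and NK cell markers the sums were 37.2 to 42.6 and 67.4 to 77.4, mostly CD3D, with CD3E at no more than 0.317. Among these, mean TRAC rose from 0.587 to 8.66 FPKM, whereas NKG7 fell from 0.725 to 0.288 and CD2 from 0.0467 to 0.00301. The part of these shifts in the results was not tested.

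**Figure D1:**
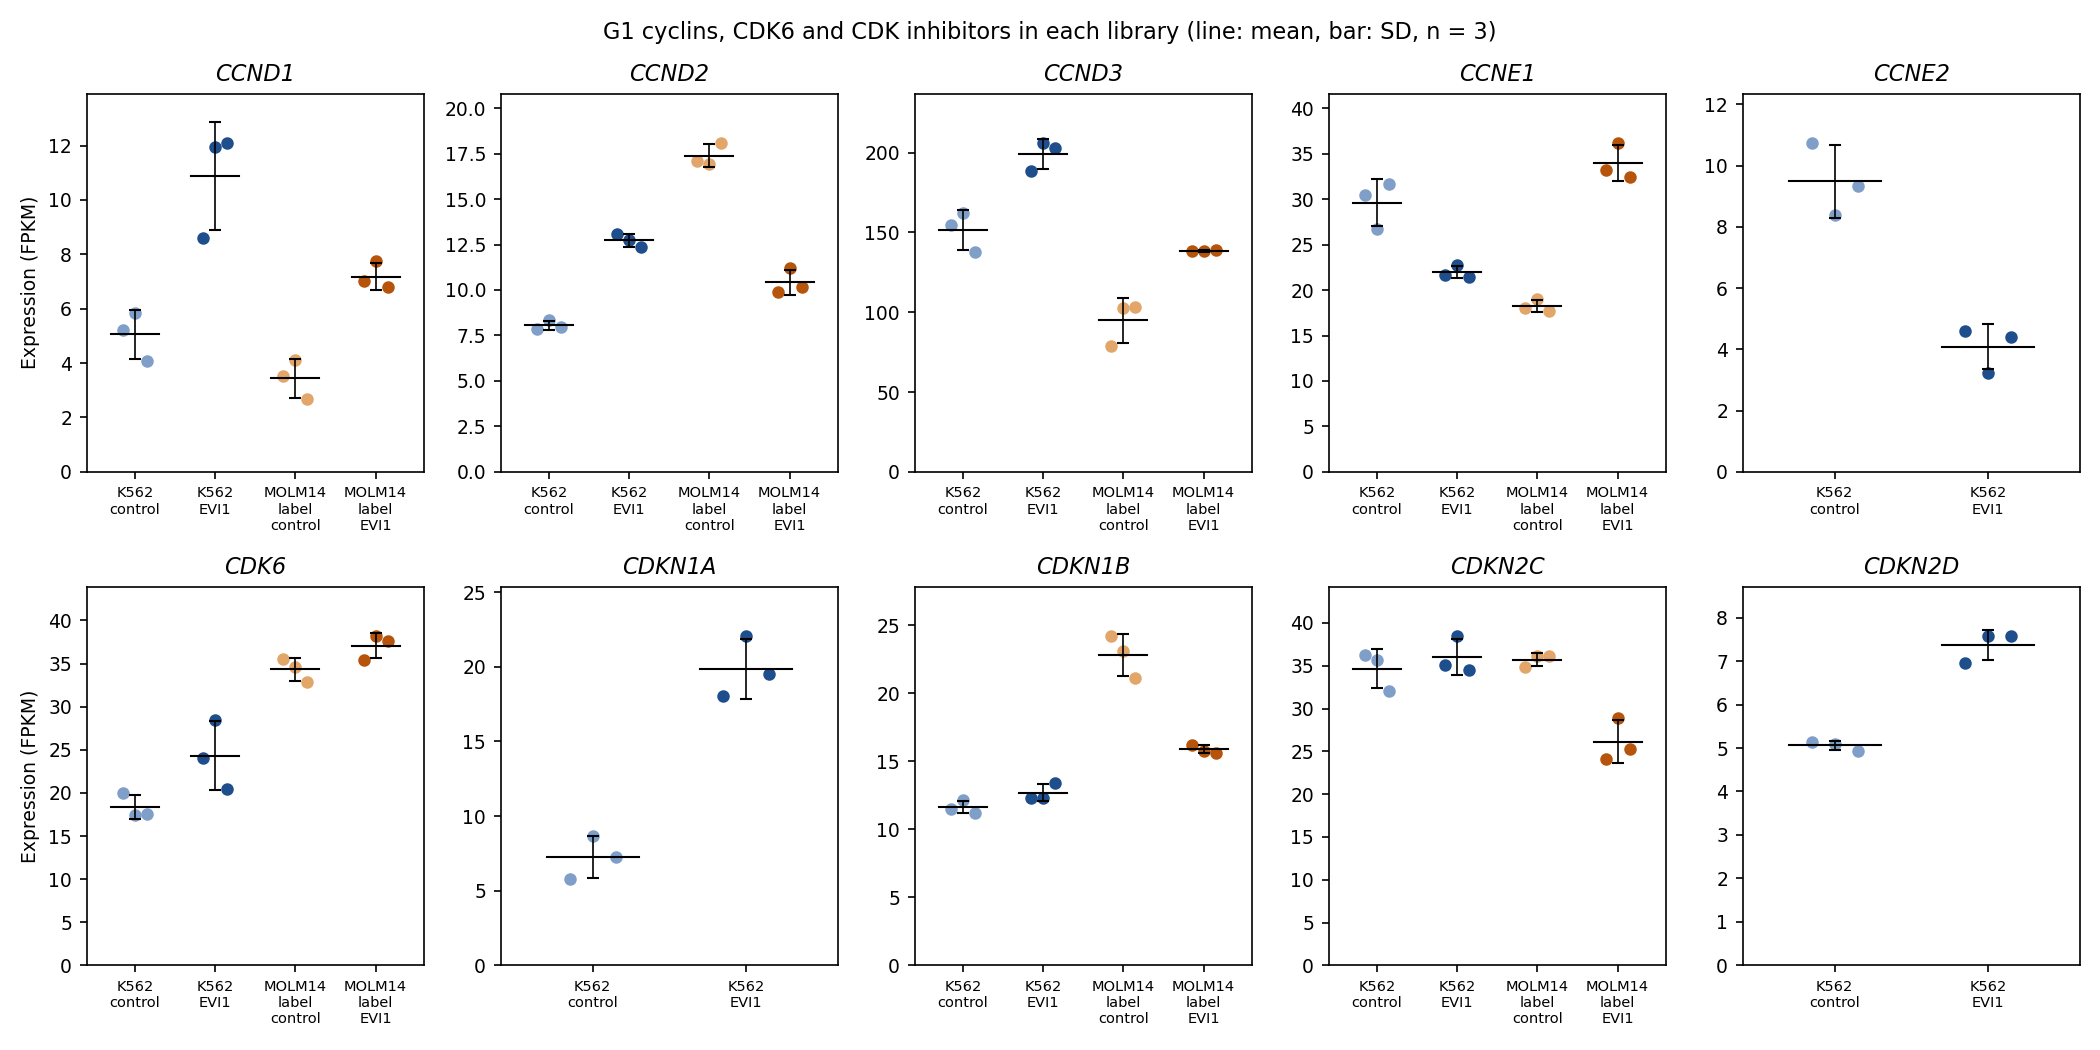
FPKM of each of the 10 genes in every library, with a linear axis from 0 for each gene; points are libraries, horizontal lines group means and bars SD (n = 3). Genes whose row name could be used in K562 alone have 2 groups. CCND2 and CCNE1 are ordered one way by EVI1 in K562 and the other way in the libraries labelled MOLM14.

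CCND3 was the most abundant of the 10 transcripts per unit length in all 4 groups. Its FPKM was 155, 162 and 138 in the K562 controls and 188, 206 and 203 in the K562 EVI1 libraries. The groups did not overlap, and the lowest EVI1 library lay above the highest control. The rise was 1.31-fold in mean FPKM, with a log2 fold change of 0.39 (SE 0.081, limma adjusted p = 0.00401), which is larger than that of 60.4% of all genes tested. The gene lies at chr6:41934933-42050357 on the minus strand of GRCh38. GENCODE 29 also lists 2 processed pseudogenes of it, CCND3P1 and CCND3P2, and how the authors' counting shared reads with such copies is not given in the sources used here.

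CCND1, the cyclin known as an amplified oncogene in solid tumours, was the lowest of the 10 in the K562 controls, with a range overlapping that of CDKN2D, and eighth of 10 with EVI1. It had 5.23, 5.85 and 4.09 FPKM in the K562 controls and 8.60, 12.0 and 12.1 in the EVI1 libraries. Every EVI1 library was above every control, and EVI1 replicate 1 was the lowest of its group. Mean FPKM went from 5.06 ± 0.894 to 10.9 ± 1.98, a log2 fold change of 0.97 (SE 0.16, limma adjusted p = 0.00109). This was the largest rise among the D-type cyclins and exceeded the change of 90.4% of genes tested. The gene, at chr11:69641087-69654474 on the plus strand, overlaps LTO1 on the opposite strand, and strand use is not stated for these libraries.

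CCND2, the cyclin D form typical of lymphoid and myeloid cells, changed with little spread. Its FPKM was 7.84, 8.34 and 7.99 in the K562 controls against 13.1, 12.7 and 12.4 in the EVI1 libraries. The gap between the groups was wider than the range within either of them. The log2 fold change was 0.60 (SE 0.078, limma adjusted p = 3.61e-04), a 1.58-fold rise of the mean. At chr12:4273772-4305350 on the plus strand, the gene overlaps the antisense transcript CCND2-AS1 and a protein-coding annotation, AC008012.1, that spans it on the same strand. Strand use, which is not stated, could separate reads of CCND2-AS1 but not those of AC008012.1. How reads were shared between AC008012.1 and CCND2 is not given in the sources used here.

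Summed over the 3 genes, D-type cyclin mRNA was 168, 176 and 149.8 FPKM in the K562 controls and 209.8, 231 and 227 in the EVI1 libraries. CCND3 supplied 92.0 ± 0.158% of that sum in the controls and 89.4 ± 0.236% with EVI1. CCND1 supplied 3.06 ± 0.30% and 4.87 ± 0.669%, and CCND2 4.91 ± 0.365% and 5.73 ± 0.433%. The sum was thus mainly cyclin D3 in either group, and both minor forms had a larger mean share with EVI1. These shares compare genes within a library and do not depend on the scaling between libraries.

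**Figure D2:**
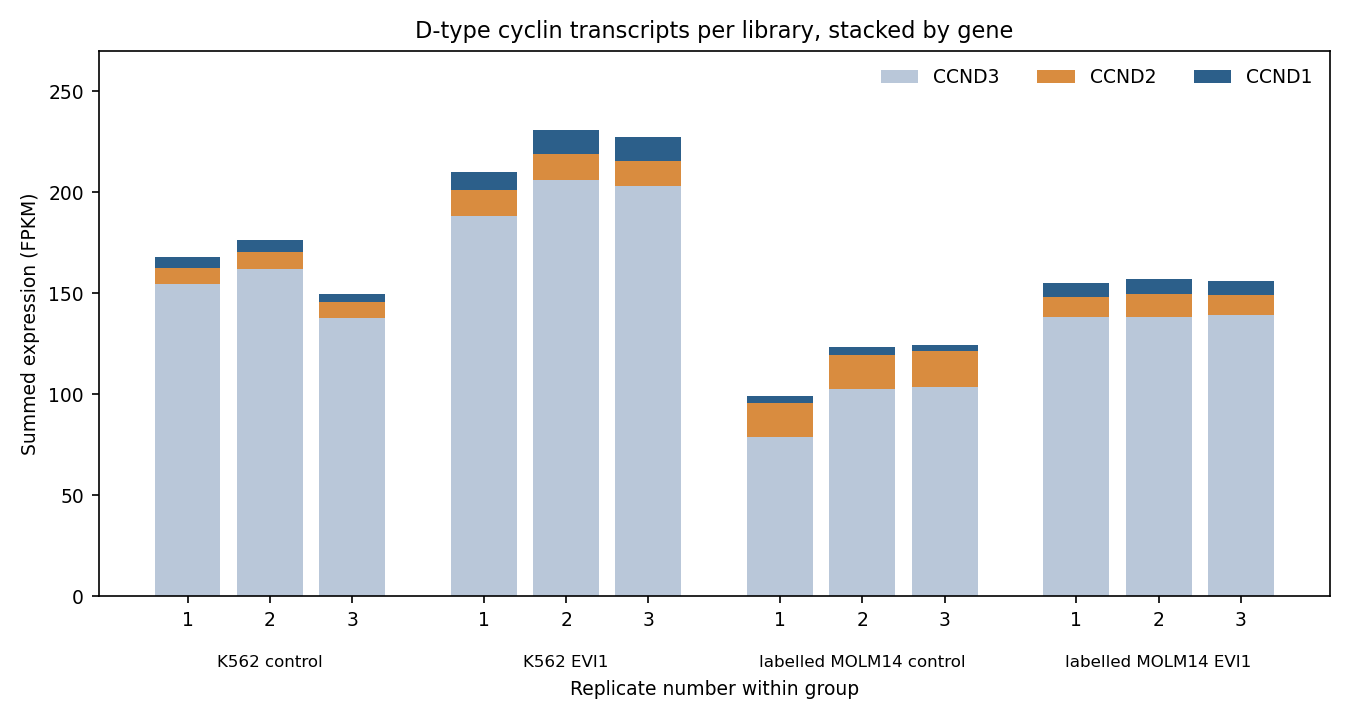
Summed FPKM of CCND1, CCND2 and CCND3 in each of the 12 libraries, one bar per library, stacked by gene, on a linear axis from 0. CCND3 makes up most of every bar, and the CCND2 segment is largest in the 3 controls labelled MOLM14, where it is 15.2% of the sum on average.

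CDK6, the kinase partner of these cyclins, had the least secure rise. Its FPKM was 20.03, 17.5 and 17.6 in the K562 controls and 24.03, 28.5 and 20.4 in the EVI1 libraries. EVI1 replicate 3 lay just above control replicate 1, and the EVI1 group was more spread out, with a coefficient of variation of 16.5% against 7.84% in the controls. The log2 fold change was 0.38 (SE 0.12, limma adjusted p = 0.0294). The call was lost in 5 of 14 alternative analyses, namely with no expression filter (adjusted p = 0.0994) and without control replicate 2 (0.0769), control replicate 3 (0.0719), EVI1 replicate 1 (0.0641) or EVI1 replicate 2 (0.0756). The gene spans chr7:92604921-92836594 on the minus strand.

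The E-type cyclins moved the other way. CCNE1 had 30.4, 26.7 and 31.7 FPKM in the K562 controls and 21.7, 22.7 and 21.5 in the EVI1 libraries. The EVI1 libraries were close together and all below the controls. The mean fell to 0.741 of its control value, with a log2 fold change of -0.41 (SE 0.084, limma adjusted p = 0.00370). CCNE1 lies at chr19:29811898-29824308 on the plus strand.

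CCNE2, the second E-type cyclin, fell more steeply. It had 10.7, 8.38 and 9.34 FPKM in the controls and 4.59, 3.24 and 4.41 in the EVI1 libraries, with no overlap. The mean went from 9.49 ± 1.19 to 4.08 ± 0.733 FPKM, which is 0.430 of the control, and the log2 fold change was -1.05 (SE 0.14, limma adjusted p = 3.36e-04). That change was larger in size than that of 91.7% of genes tested. GENCODE 29 places INTS8 and NDUFAF6 on the opposite strand over parts of the gene, which lies at chr8:94879770-94896678 on the minus strand. With both E-type cyclins added, mRNA went from 39.1 ± 3.47 to 26.0 ± 0.219 FPKM, and the ratio of CCND3 to CCNE1 went from 5.17 ± 0.863 to 9.07 ± 0.392.

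CDKN1A, which encodes p21, the inhibitor best known as a target of the p53 response, showed the largest change of the 10 genes in K562. Its FPKM was 5.82, 8.64 and 7.28 in the controls and 18.02, 22.0 and 19.5 in the EVI1 libraries. The lowest EVI1 library held more than the highest control by a margin wider than the range of either group. The mean rose 2.74-fold, with a log2 fold change of 1.35 (SE 0.14, limma adjusted p = 9.08e-05), and 95.2% of genes tested changed less. K562 is known to lack functional p53. The gene lies at chr6:36676460-36687339 on the plus strand and overlaps the long noncoding RNA gene DINOL on the opposite strand.

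CDKN1B, the p27 gene, stayed within a narrow band in the same libraries. It had 11.5, 12.1 and 11.2 FPKM in the controls and 12.3, 12.3 and 13.4 in the EVI1 libraries. The groups did not overlap, as was the case for 60.6% of all genes tested, but the log2 fold change of 0.12 (95% CI -0.068 to 0.30, limma adjusted p = 0.257) did not pass the test. The ratio of CDKN1A to CDKN1B FPKM was 0.622 ± 0.106 in the controls and 1.57 ± 0.190 with EVI1, so p27 mRNA was the more abundant of the pair in every control and p21 mRNA in every EVI1 library. CDKN1B lies at chr12:12715058-12722371 on the plus strand.

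The INK4 inhibitors differed from each other. CDKN2D, the p19 gene, had 5.14, 5.10 and 4.94 FPKM in the K562 controls and 6.96, 7.57 and 7.57 in the EVI1 libraries, without overlap. Its log2 fold change was 0.46 (SE 0.085, limma adjusted p = 0.00221), a 1.46-fold rise. CDKN2C, the p18 gene, had 36.2, 35.7 and 32.0 FPKM in the controls and 35.1, 38.4 and 34.5 in the EVI1 libraries. Those values overlapped, and the log2 fold change of 0.054 (95% CI -0.13 to 0.24, limma adjusted p = 0.594) did not pass the test. At 34.7 ± 2.27 FPKM in the controls, CDKN2C was the most abundant per unit length of the 4 inhibitor transcripts. CDKN2C lies at chr1:50960745-50974633 on the plus strand and CDKN2D at chr19:10566462-10569059 on the minus strand. The other INK4 genes, CDKN2A and CDKN2B, were listed at 0 in all K562 libraries.

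The order of the FPKM levels changed below CCND3 and CDKN2C, which ranked first and second in both K562 groups. In the controls CCNE1, CDK6, CDKN1B and CCNE2 followed, each separate from its neighbours, and the ranges overlapped between CCND2 and CDKN1A and between CDKN2D and CCND1 at the bottom. With EVI1, CDK6 and CCNE1 overlapped, as did CCNE1 and CDKN1A, and CCND2 and CDKN1B. CDKN1A thus stood beside CCNE1 with EVI1, whereas it had been among the lowest in the controls, and CCNE2 became the lowest of the 10.

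The genes whose K562 profiles were nearest were sought for each of the 8 called members, as the smallest root mean square distance between the 6 centred log2(FPKM + 1) values. For CDKN1A these were WDR54 (distance 0.068) and ACVRL1 (0.076), and for CCND1 RGS3 (0.086) and C3orf18 (0.10). CCND2 was nearest to PLPPR2 and ACY1 (both 0.029), and CCND3 to LTBP3 and AP2A1 (both 0.023). CCNE1 lay nearest to PYM1 (0.030) and GSPT1 (0.031), CCNE2 to UTP15 (0.045) and EIF1AXP1 (0.050), CDK6 to TANGO6 (0.028) and TVP23C (0.032), and CDKN2D to CDR2L (0.019) and CCDC17 (0.033). No other member was among the 2 nearest of any of them. With 3 libraries against 3, this distance depends largely on the fold change. For CDKN1A, at a log2 fold change of 1.35, WDR54 and ACVRL1 had 1.36 and 1.37. How many genes lay almost as near was not counted, and nearness here does not show shared regulation.

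**Figure D3:**
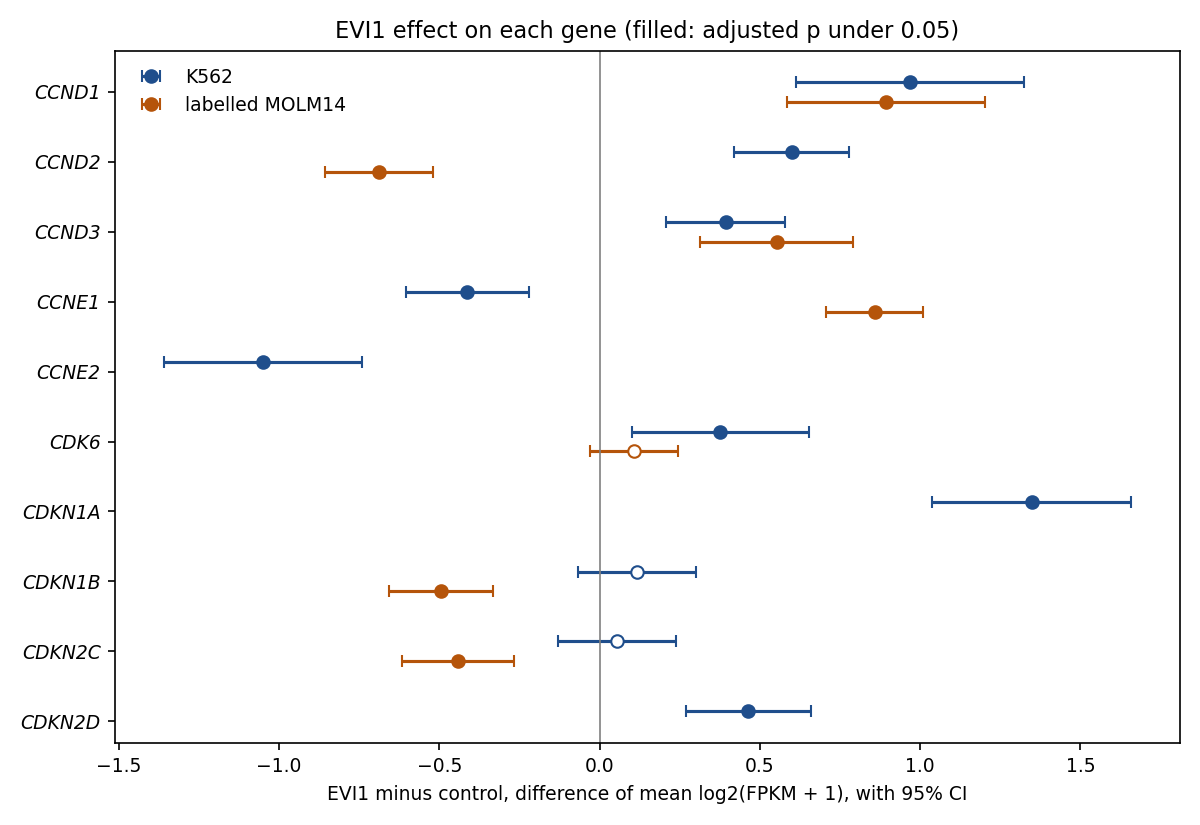
Difference of mean log2(FPKM + 1), EVI1 minus control, with its 95% confidence interval from limma for each gene, in K562 (blue) and in the libraries labelled MOLM14 (orange); filled points had an adjusted p under 0.05. The intervals of CCND2 and CCNE1 lie on opposite sides of 0 under the 2 labels, and those of CCND1 and CCND3 on the same side.

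Under the MOLM14 label, where 7 of the genes could be read, 3 rose (CCND1, CCND3 and CCNE1), 3 fell (CCND2, CDKN1B and CDKN2C), and CDK6 did not pass the test. Of all rows tested under this label, 54.2% were called, 27.4% up and 26.8% down, and of the 3768 tested rows with usable names 57.3%, 30.4% up and 26.9% down. The EVI1 and control libraries did not overlap in the 6 called genes, as in 61.7% of all rows tested and 65.2% of those with usable names. The median log2 fold change was 0.11 over the 7 genes and -0.007 over all rows.

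CCNE1 changed most clearly among them relative to its spread. Its FPKM was 18.1, 19.004 and 17.7 in the labelled MOLM14 controls and 33.2, 36.2 and 32.4 in the EVI1 libraries. All EVI1 libraries were far above all controls, the reverse of the order in K562. The log2 fold change was 0.86 (SE 0.065, limma adjusted p = 4.74e-05), a 1.86-fold rise.

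CCND2 also took the opposite direction. It had 17.1, 16.9 and 18.1 FPKM in the labelled MOLM14 controls and 9.91, 11.2 and 10.1 in the EVI1 libraries, again with a clear gap. The mean fell to 0.599 of the control, with a log2 fold change of -0.69 (SE 0.072, limma adjusted p = 2.01e-04). Its share of the D-type cyclin sum went from 15.2 ± 1.84% to 6.67 ± 0.397%, and the ratio of CCND2 to CCND1 from 5.24 ± 1.35 to 1.45 ± 0.041. In K562 that ratio was 1.63 ± 0.285 in the controls and 1.20 ± 0.275 with EVI1.

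The other D-type cyclins rose under both labels. CCND1 had 3.53, 4.11 and 2.68 FPKM in the labelled MOLM14 controls and 7.02, 7.74 and 6.80 in the EVI1 libraries, and CCND3 had 78.7, 102.5 and 103.4 in the controls and 138, 138 and 139 in the EVI1 libraries. Neither gene's groups overlapped, and control replicate 1 was the low library for CCND3. The log2 fold changes were 0.89 (SE 0.13, limma adjusted p = 9.81e-04) for CCND1 and 0.55 (SE 0.10, limma adjusted p = 0.00286) for CCND3. The D-type cyclin sum went from 116 ± 14.2 to 156 ± 0.957 FPKM although CCND2 fell, and CCND3 supplied 88.7 ± 0.675% of it with EVI1.

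Both inhibitors that did not pass the test in K562 fell under the MOLM14 label. CDKN1B had 24.2, 23.1 and 21.1 FPKM in the controls and 16.2, 15.8 and 15.6 in the EVI1 libraries, and CDKN2C had 34.9, 36.1 and 36.2 in the controls and 24.1, 28.9 and 25.3 in the EVI1 libraries. In each gene every EVI1 library was below every control. The log2 fold changes were -0.49 (SE 0.069, limma adjusted p = 7.56e-04) for CDKN1B and -0.44 (SE 0.075, limma adjusted p = 0.00193) for CDKN2C. CDK6 had 35.5, 34.6 and 32.9 FPKM in the controls and 35.4, 38.2 and 37.6 with EVI1, which overlapped, and its log2 fold change was 0.11 (95% CI -0.028 to 0.24, limma adjusted p = 0.156).

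The labels' effects were then compared directly, as the EVI1 effect under the MOLM14 label minus that in K562, in one limma fit over the 12 libraries and 3697 genes. Of these, 64.9% differed, 34.1% upward and 30.8% downward, so a difference between the labels is the common case. CCNE1 differed by 1.27 log2 units (SE 0.11, adjusted p = 1.50e-07), with the larger effect under the MOLM14 label. CCND2 differed by -1.29 (SE 0.10, adjusted p = 8.33e-08), CDKN1B by -0.61 (SE 0.10, adjusted p = 1.25e-04) and CDKN2C by -0.50 (SE 0.11, adjusted p = 0.00123). Those 3 were lower under the MOLM14 label. CCND2 and CCNE1 were called in opposite directions under the 2 labels, as were 24.3% of the 3697 genes; CCND1 and CCND3 were called in the same direction, as were 8.74%.

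For the remaining 3 genes the difference did not pass the test, which does not show that the effects were alike. The 95% interval ran from -0.52 to 0.37 for CCND1 (difference -0.076, limma adjusted p = 0.763), from -0.12 to 0.44 for CCND3 (0.16, limma adjusted p = 0.310) and from -0.57 to 0.030 for CDK6 (-0.27, limma adjusted p = 0.104). The CDK6 difference passed in 2 of 20 alternatives, with each library rescaled to the same FPKM sum (-0.36, adjusted p = 0.0230) and without K562 EVI1 replicate 3 (-0.38, adjusted p = 0.0144). For MECOM itself the difference was -0.043 (limma adjusted p = 0.807).

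Levels under the 2 labels appear to come from separate normalization runs, so they are set side by side without a test. CCNE1 averaged 29.6 ± 2.59 FPKM in K562 controls and 33.9 ± 2.00 in EVI1 libraries labelled MOLM14, against 22.0 ± 0.670 in K562 EVI1 and 18.3 ± 0.653 in the labelled MOLM14 controls. CCND2 averaged 8.06 ± 0.257 in K562 controls and 10.4 ± 0.681 in EVI1 libraries labelled MOLM14, against 12.7 ± 0.348 in K562 EVI1 and 17.4 ± 0.617 in the labelled MOLM14 controls. For CCNE1 the EVI1 libraries of either label stood nearer to the controls of the other label than to its EVI1 libraries, which was not so for CCND2. The summed FPKM of the 7 monocytic and granulocytic markers that could be read under the MOLM14 label, of which 4 reached 1 FPKM in controls and 3 with EVI1, was 161 to 164 in those controls and 75.1 to 76.3 with EVI1. All 14 of these markers summed to 79.4 to 82.5 in K562 controls and 86.4 to 99.8 in K562 EVI1. Single markers differed: mean CD33 was 24.7 FPKM in K562 controls and 53.3 with EVI1, whereas SPI1 was 28.8 and 18.6, LYZ 21.8 and 12.5, and ITGAM 1.23 and 0.331. The 3 readable erythroid markers summed to 142 to 164 in the labelled MOLM14 controls and 202 to 220.4 with EVI1. The part of these shifts in the differences was not tested.

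Sequences just upstream of a RefSeq start of 3 genes are shown because these genes, all regulators of the same G1 step, took different directions in K562: CDKN1A and CDKN2D rose and CCNE1 fell. They come from RefSeq promoter windows on GRCh38.p14, read 5′ to 3′ on the gene's strand, from 250 bases before the RefSeq start up to the first base of any exon of the gene in GENCODE 29. Capitals mark the GC box GGGCGG, the usual site of SP1-family factors, and the CCAAT box, the usual site of NF-Y, on either strand. They are chr6:36678464-36678657 (plus) for CDKN1A, chr19:10569060-10569229 (minus) for CDKN2D and chr19:29811741-29811897 (plus) for CCNE1. The CDKN1A stretch lies within the gene's full GENCODE span, whose first annotated start is farther upstream.
CDKN1A: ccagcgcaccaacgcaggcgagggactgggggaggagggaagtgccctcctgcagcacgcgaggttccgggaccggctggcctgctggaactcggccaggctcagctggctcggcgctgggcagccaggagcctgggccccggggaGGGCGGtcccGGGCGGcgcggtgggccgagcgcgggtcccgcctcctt
CDKN2D: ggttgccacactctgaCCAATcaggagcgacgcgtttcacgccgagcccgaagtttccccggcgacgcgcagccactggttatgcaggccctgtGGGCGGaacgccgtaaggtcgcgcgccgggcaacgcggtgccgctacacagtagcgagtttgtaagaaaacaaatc
CCNE1: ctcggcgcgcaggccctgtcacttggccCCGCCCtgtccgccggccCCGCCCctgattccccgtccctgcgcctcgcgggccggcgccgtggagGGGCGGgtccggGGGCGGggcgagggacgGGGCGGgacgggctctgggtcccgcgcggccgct

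All 3 stretches were rich in G and C, with 76.8% for CDKN1A, 62.4% for CDKN2D and 83.4% for CCNE1. Each held a GC box, with 2, 1 and 5 copies respectively. Their full windows of 250 bases, which also hold the bases nearest the RefSeq start, had 4, 2 and 7. The same search over full windows of 250 bases found RefSeq entries for 7 of the 10 genes, with 12 windows in all. GGGCGG was present in 9 of the 12 windows and in at least 1 window of each of the 7 genes, against 42.6% of 35116 promoter windows of the same length, and CCAAT was present in 5 windows, against 32.0%. The member windows were 45.6% to 81.2% G and C, against a median of 58% over all promoters, and the shares were not matched for this. The sequence CACGTG, an E-box bound by MYC, occurred in 2 windows, both of CDKN2C, against 6.34% of all promoters. The letters TTTCCCGC, TTTGGCGC, TTTCGCGC and TTTGCCGC, searched for E2F, occurred in none of the 12 windows and in 2.79% of all promoters. Nor did AGATAA for GATA factors (9.17% of promoters), TGACGTCA for the CRE (1.65%), TTCNNNGAA for STAT factors (6.57%), or GACAAGATA (0.0854%) and GAAGATGAG (0.265%) for the zinc finger sets of EVI1. GGGCGG can overlap itself in runs such as GGGCGGGGCGG, and each start was counted. A match or its lack describes these letters in these windows only.

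The other genes of the G1/S pathway were read from 9 lists of 107 genes, of which 102 were tested in K562: 22 rose, 35 fell and 45 did not pass the test. Over all genes tested 51.9% were called, 28.2% up and 23.7% down. The share of listed genes called in either direction is near that background, but falls outnumbered rises in the lists and not over all genes. With libraries rescaled to the same FPKM sum, 25 listed genes rose and 21 fell. The same shares over all genes are the background of each list below, and no list was tested against it. The lists were also chosen with earlier results of these data known, so their medians and counts only describe them. The E2F targets of S phase entry were the list with the most falls, with 11 of 16 down, 2 up and 3 not called, and a median log2 fold change of -0.25 against 0.005 over all genes. Among them the chromatin factor UHRF1 fell by 0.85 on the log2 scale (limma adjusted p = 9.00e-04), the ribonucleotide reductase subunit RRM2 by 0.80 (3.22e-05) and the DNA polymerase alpha subunit POLA1 by 0.65 (2.40e-04). The licensing factor CDT1 rose, at 0.55 (7.49e-04), as did the large reductase subunit RRM1, at 0.46 (0.00295). The count of falls depended on single libraries and on scaling: it was 5 when libraries were rescaled to the same FPKM sum, 7 with no expression filter, 5 without K562 control replicate 1, and 6 without control replicate 2, EVI1 replicate 1 or EVI1 replicate 3.

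The pocket protein, E2F and DREAM list had 9 of 20 down and 1 up. MYBL2, the B-MYB gene of the mitotic form of the DREAM complex, fell by 0.76 on the log2 scale (limma adjusted p = 1.24e-04), and E2F3 and E2F5 each fell by 0.73 (3.13e-04 and 0.00154). LIN37, a DREAM core subunit, had the list's only rise, at 0.33 (0.0417). RB1, which encodes the retinoblastoma protein, is on this list and did not pass the test. Quantile normalization gave 14 falls and no rise in the list.

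Of 11 other CDKs, CDK-activating kinase and CDC25 genes, MNAT1 and WEE1 rose (log2 fold changes 0.65 and 0.26, limma adjusted p = 9.28e-04 and 0.0202), CDC25A and CDK4 fell (-0.38 and -0.34, limma adjusted p = 0.00422 and 0.0163), and 7 were not called. CDK4, the other partner of D-type cyclins, thus changed in the direction opposite to CDK6; its call was lost in 4 of 14 alternatives and that of CDK6 in 5. Of the 4 S phase and mitotic cyclins tested, CCNA2 fell by 0.27 (limma adjusted p = 0.0224) and 3 were not called. Among 12 other cyclins 2 rose and 3 fell, with CCNO at -0.77 and CCNY at 0.51 as the largest (limma adjusted p = 0.00108 and 0.00499). CDKN1C, the third CIP/KIP inhibitor (p57), fell by 0.50 (limma adjusted p = 0.00182), against the direction of CDKN1A, and CDKN3, a phosphatase that acts on CDKs, rose by 0.64 (limma adjusted p = 0.00107).

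The list of ubiquitin ligase, adaptor and related genes of cyclins and inhibitors had 5 of 15 down and 1 up. CUL1, the scaffold of the SCF ligase that takes cyclin E and p27, fell by 0.93 on the log2 scale (limma adjusted p = 2.63e-05). The SCF adaptor SKP1 fell by 0.40 (0.00341). USP28, which fell by 0.41 (0.0126), is a deubiquitinase, which takes ubiquitin off, and not part of a ligase. AMBRA1, which directs D-type cyclins to degradation, rose by 0.49 (0.00568). Transcription factors known to act on G1 cyclin or inhibitor genes had 9 of 14 up and 1 down. EGR1 rose by 2.14 (limma adjusted p = 1.45e-06), BHLHE40 by 1.66 (1.75e-06) and SMAD4, which carries TGF-beta signals to CDKN1A among others, by 0.92 (3.50e-04), while SP1, a GC box factor, had a log2 fold change of -0.25 (0.0494), a call lost in 9 of 14 alternatives. Of 8 proliferation markers 4 rose and 2 fell, with BUB1 at 0.59 (limma adjusted p = 6.16e-04) and MKI67 at -0.37 (0.00565), so these markers did not move in one direction. The MKI67 call was lost with libraries rescaled to the same FPKM sum (-0.30, adjusted p = 0.0706), which left 1 fall.

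Several of these list calls in K562 depended on 1 library. That of CDK4 was lost without control 1, EVI1 1 or EVI1 3, that of WEE1 without control 1, control 2 or EVI1 1, and that of CCNA2 or LIN37 without control 1, control 3, EVI1 2 or EVI1 3. That of SP1 was lost without control 1, control 2, EVI1 1 or EVI1 3, and the ubiquitin ligase list had 3 falls without control 1 or EVI1 1.

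**Figure D4:**
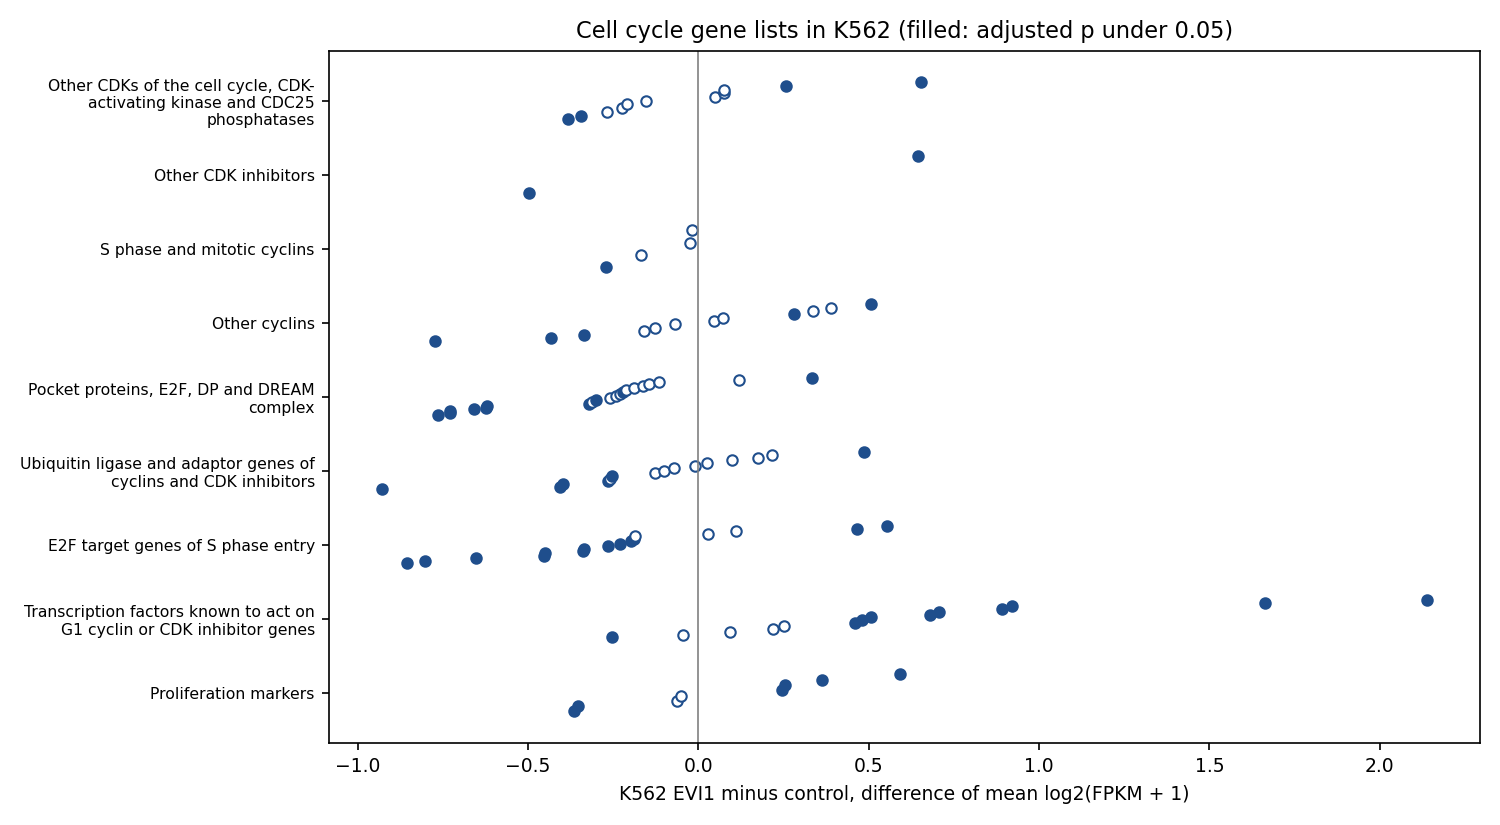
Difference of mean log2(FPKM + 1), K562 EVI1 minus control, for each tested gene of the 9 cell cycle lists; each point is 1 gene, filled where the limma adjusted p was under 0.05, with points of a list spread vertically for legibility. The E2F targets and the pocket protein list lie mostly left of 0 and the transcription factors mostly right of it, with EGR1 farthest at 2.14.

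Under the MOLM14 label 41 of the listed genes could be tested, and 20 rose, 7 fell and 14 did not pass the test, beside 57.3% called, 30.4% up and 26.9% down, over all tested rows with usable names. Of the 7 E2F targets among them 6 rose, including the helicase subunits MCM4 at 0.74 and MCM3 at 0.68 (limma adjusted p = 1.10e-04 and 3.19e-05), and MCM5 did not pass the test (0.15, adjusted p = 0.154). In K562, MCM4 and MCM3 had log2 fold changes of -0.27 and -0.23 (limma adjusted p = 0.0219 and 0.0365). Of the same 7 genes 5 fell and none rose in K562. Among these falls POLA1 had a limma adjusted p of 2.40e-04, and CDC6, MCM3, MCM4 and MCM6 had 0.0467, 0.0365, 0.0219 and 0.0362. The count of falls in the full list depended on single libraries and on scaling, as given above. CCNE1, itself an E2F target, had the direction of the called genes among these 7 under either label. CDT1 and RRM1, which rose in K562, are not among them. MYBL2 and CUL1 rose under the MOLM14 label, at 0.51 and 0.76 (limma adjusted p = 5.46e-04 and 3.79e-05), and fell in K562. Of the 41 genes, 31 differed between the labels, 21 with the higher effect under the MOLM14 label and 10 with the lower, against 64.9% of all genes in that fit. The 3 readable proliferation markers, AURKA, CDC20 and BIRC5, all rose under the MOLM14 label, at 0.27, 0.40 and 0.47 (limma adjusted p = 0.0230, 8.01e-04 and 2.64e-04).

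**Figure D5:**
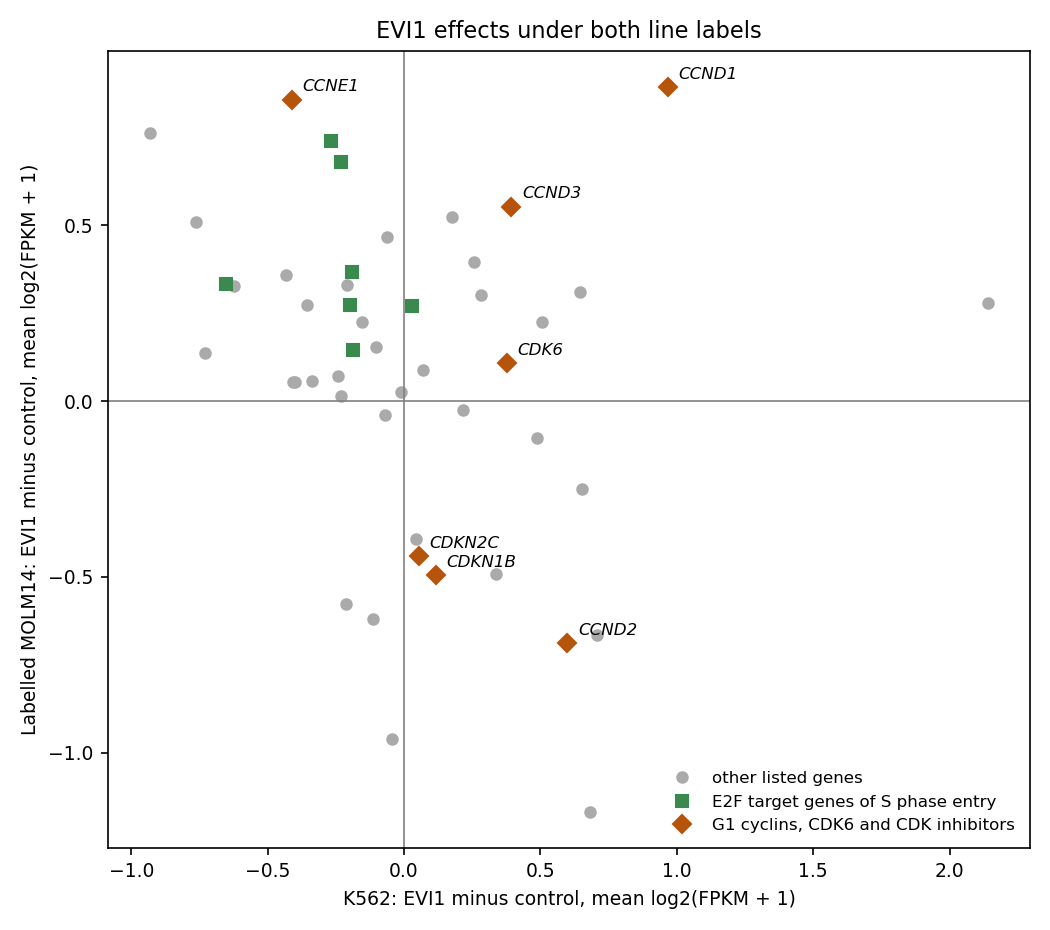
EVI1 effect in K562 (horizontal axis) against the effect in the libraries labelled MOLM14 (vertical axis), both as differences of mean log2(FPKM + 1), for the 7 readable members (diamonds), 7 E2F targets (squares) and the other listed genes (grey). CCNE1 lies at upper left, as do most of the E2F targets, but higher than all of them. CCND2 lies at lower right, and CCND1 and CCND3 at upper right.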

How the data were processed

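RNA was measured in 12 libraries, grouped and numbered from their titles; TruSeq libraries were made from total RNA, per the labels' protocols, whose extraction text names mouse small intestine although organism and lines are human. The deposited values are FPKM per gene, which the authors made on hg38 (GRCh38) with STAR, Cufflinks and then Cuffnorm according to the submitters' processing notes, which state no version. Batch, date, strand use and poly(A) selection are not given in the sources used here. The members and lists were chosen with earlier results of these data known.

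Control means of both labels were compared in 275 windows of 20 rows (lowest r 0.883, median 0.978); from the first identifier ending _PAR_Y on, r was 0.041 over 500 rows, so names were used for MOLM14 columns in the 5510 rows before it only. Around the 7 members read there, r was 0.963 to 0.991 over 21 rows.

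Values were analysed as log2(FPKM + 1), so fold changes of low genes are understated, in R 4.3.3 with limma 3.58.1 (trend, two-sided, Benjamini-Hochberg over all genes of a fit) and Python 3.11.15. The expression filter was 1 FPKM or more in 3 or more libraries of a line label. In the fit of differences it had to be passed under each label. All 10 members passed in K562 and 7 of 7 under the MOLM14 label. Depth came from the steps between low FPKM values of single-transcript genes (95.8% to 96.7% of these values in K562, and 79.3% to 96% under the MOLM14 label, matched whole reads to 0.05 log2); counts per gene are not known, so no counting interval is given. The scripts were tested on simulated data. Named list genes are the up to 3 called members with the largest rise and fall per list in K562. Genes named outside that rule (CDC6, MCM3, MCM4, MCM5, MCM6, BIRC5, RB1, CDKN2A, CDKN2B) were chosen after their values were seen. Alternatives were other scalings, pseudocount 0.1, other filters, no trend, a replicate block and each library left out.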

Additional observations from a re-analysis of the deposited data

Results flagged for a closer look

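The difference of the EVI1 effect, MOLM14 label minus K562, passed the limma test (Benjamini-Hochberg adjusted p under 0.05 over 3697 genes, of which 64.9% passed) in 4 of the 7 readable members, which brings them here. In log2 units it was -1.29 for CCND2, 1.27 for CCNE1, -0.61 for CDKN1B and -0.496 for CDKN2C.

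Among the named genes of the pathway lists the same test passed in 12. These genes were picked for the largest rises and falls in K562, and the K562 effect is subtracted in the difference. The pick thus favours a passing difference of opposite sign to the K562 change, so no conclusion about the lists is drawn from this count. The effect was higher under the MOLM14 label for CUL1 (1.69), MYBL2 (1.27), POLA1 (0.988), E2F3 (0.866), CCNJ (0.794), AURKA (0.629), USP28 (0.462), SKP1 (0.453) and CCNT2 (0.394). It was lower for EGR1 (-1.86), AMBRA1 (-0.59) and CDKN3 (-0.334), all in log2 units.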

How the results depend on the processing

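Directions and calls of the members held in 367 of 378 comparisons with an alternative. The exceptions were the CDK6 rise in K562, lost in 5, the CDK6 difference, which passed in 2, and the CCND1 difference, never called, whose sign turned in 4: 0.135 with quantile normalization, 0.0444, 0.00167 and 0.032 with K562 control 3, K562 EVI1 3 and MOLM14 control 2 left out, in a range from -0.222 to 0.0444 over the libraries left out. The uncalled MECOM difference turned to 0.0297 with quantile normalization and to 0.0119, 0.0283 and 0.0134 with K562 control 2, K562 control 3 and K562 EVI1 1 left out, in a range from -0.168 to 0.0283. Leaving out 1 library gave 5591 to 6818 called genes in K562, 5975 to 6386 rows under the MOLM14 label and 2262 to 2391 differences. Listed genes called down in K562 numbered 21, not 35, with libraries rescaled to the same FPKM sum, and 22 to 35 with a library left out, the lowest without control replicate 1; the cause was not tested. Of all called genes in K562, 54.4% were up (3898 up, 3265 down), 65.6% with that rescaling (4127 and 2167) and 45.0% with quantile normalization (3345 and 4085). Replicate numbers gave no clear sign of pairing. The correlation of same-numbered deviations was -0.21 to 0.13 in K562 and -0.053 to -0.0087 under the MOLM14 label. Only for K562 replicate 3 (0.13) was it above the highest correlation with another number (-0.044). With 3 libraries per group this cannot exclude pairing. With the number as a block, 7044 genes were called in K562 against 7163, 7098 rows against 7212 under the MOLM14 label, 2449 differences against 2400, and 6 members rose and 2 fell in K562, as without it. The 3 libraries per group and unknown counts per gene limit all of these.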
